A study of Mus musculus with 6 samples.

Results

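The insulin-like growth factor (IGF) axis was examined here as 10 genes given by name: the ligands IGF1 and IGF2, the receptors IGF1R, IGF2R and INSR, and the binding proteins IGFBP2, IGFBP3, IGFBP4, IGFBP5 and IGFBP6. A gene was given a value only where a probe set of the array carried that gene's symbol alone. This held for 8 of the 10 genes, among 18417 genes with a value in all. The 1 probe set whose annotation lists IGF2 also lists INS and INS-IGF2, and the 1 probe set that lists IGFBP6 also lists C12orf57, so neither gene was given a value.

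The tumours were xenografts of SK-N-BE(2), a human neuroblastoma cell line in which MYCN is amplified, placed in the adrenal gland of NSG mice, which lack T, B and natural killer cells. The 3 mice of the BL-8040 group received this inhibitor of the chemokine receptor CXCR4 at 400 µg under the skin on 14 consecutive days, from 7 days after cell injection. The 3 mice of the control group carried the same tumours in the same strain; what they were given, and the age of the mice, are not stated in the sources used here. The labels carry the treatment text on the control samples too, so the groups rest on the sample titles and descriptions, and they give the organism as mouse, the host. All tumours thus come from 1 cell line in an immunodeficient host, and each was read on 1 array of human probe sets.

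IGF1 and IGF2 are secreted peptides that signal through IGF1R, a receptor tyrosine kinase at the head of the PI3K-AKT and RAS-ERK pathways. INSR, the insulin receptor, has an isoform that also binds IGF2, and it forms hybrids with IGF1R. IGF2R, the mannose 6-phosphate receptor, takes IGF2 up for degradation, and the IGF-binding proteins hold the ligands in the fluid and matrix around cells. IGF2 and IGF1R have long been studied as growth and survival signals of neuroblastoma cells.

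The array medians lay between 5.35 and 5.42 on the log2 scale, and the correlation between arrays, taken across genes, was between 0.992 and 0.997; genes are not independent replicates. BL-8040 replicate 3 stood apart: on the first principal component, with 37.2% of the variance, it lay at -22.7 and the other 5 arrays between -0.74 and 10.1. Tumour cell markers, 16 of 18 measured, were adrenergic genes, neuronal genes and MYCN. Their median signal lay at percentile 90.6 of all genes, against percentile 28.8 for 10 endothelial, 25.6 for 10 myeloid and 24.99 for 9 adrenal cortex markers. The 10 fibroblast markers lay at percentile 92.2, so fibroblast-type transcripts were bright in these tumours, whichever cells made them. Mouse RNA can add signal where it hybridizes to human probe sequences, and its share was not tested. In such bulk RNA, fewer cells of a type and less RNA per cell cannot be told apart.

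The comparison of BL-8040 with control asked whether the IGF axis differed in tumours after CXCR4 inhibition. None of the 8 genes passed the test: limma called 0 of 8 at a Benjamini-Hochberg adjusted p under 0.05, where it called 0% of all 18417 genes. At an unadjusted p under 0.05 it also found 0 of the 8, against 7.72% of all genes (1422); 5.08% of all genes were lower at that p. The mean after BL-8040 was lower than in controls in 7 of the 8 genes, where 58.5% of all genes were lower, and the median difference was -0.08 log2 units for the 8 genes and -0.02 for all genes. With 1 array left out the median of the 8 lay between -0.16 (without control replicate 1) and -0.04 (without BL-8040 replicate 3). All differences are log2 units of BL-8040 minus control, here from -0.38 for IGFBP5 to 0.10 for IGF1. Adjusted p-values of the 8 genes lay between 0.646 and 0.957.

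**Figure D1:**
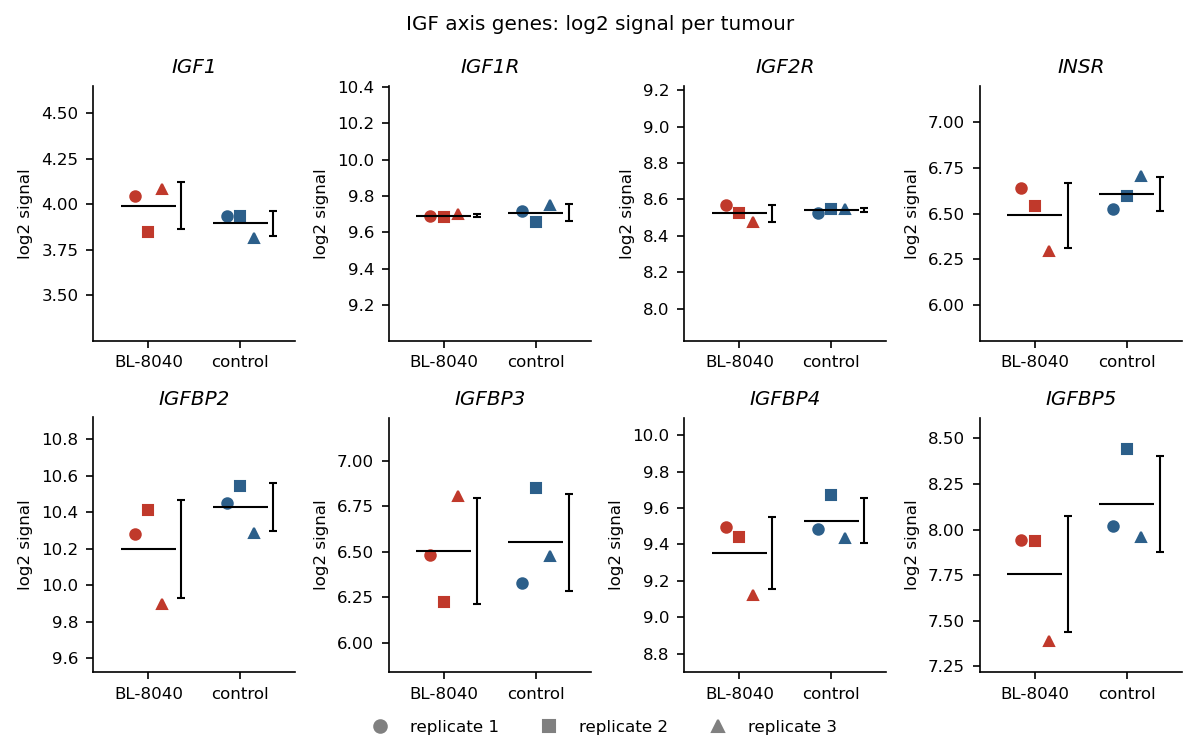
Log2 signal of each IGF axis gene in each tumour, with BL-8040 at the left and control at the right of each panel; points are single arrays (marker shape gives the replicate number), the line is the mean and the bar beside it the SD (n = 3 each), and all panels span the same number of log2 units. IGF1R and IGF2R lie close together in all 6 tumours, whereas BL-8040 replicate 3 lies well below the other points for INSR, IGFBP2, IGFBP4 and IGFBP5.

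IGF1, the only ligand with a value, had log2 signals of 4.04, 3.85 and 4.09 in BL-8040 replicates 1, 2 and 3, against 3.94, 3.94 and 3.81 in control replicates 1, 2 and 3. The groups overlapped, since BL-8040 replicate 2 lay below control replicates 1 and 2. The mean was 3.99 ± 0.13 in BL-8040 tumours and 3.90 ± 0.07 in control tumours (SD, n = 3 each), a difference of 0.10 with a 95% interval from -0.10 to 0.29 (limma adjusted p = 0.765). Leaving out BL-8040 replicate 3 gave 0.05, and leaving out BL-8040 replicate 2 gave 0.17. The IGF1 signal was dim, at percentile 19.1 of all genes, and no detection call was available to say whether it lay above background.

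IGF1R, the signalling receptor, was nearly level across the 6 tumours. Its log2 signal was 9.69, 9.68 and 9.70 after BL-8040, against 9.72, 9.66 and 9.75 in controls. Every treated value lay inside the range of the controls, and the whole range over 6 arrays was 0.09 log2 units, at percentile 1.501 of the ranges of all genes. The difference was -0.02 with a 95% interval from -0.17 to 0.14 (limma adjusted p = 0.954), that is, a level between 0.890 and 1.099 times that of controls. A second, separate probe set of IGF1R gave 7.24, 7.34 and 7.14 after BL-8040, against 7.39, 7.24 and 7.19 in controls, again with overlapping groups and a difference of -0.03 ± 0.09 (SE).

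IGF2R, the receptor that clears IGF2, was as tightly held. Its log2 signal was 8.57, 8.53 and 8.48 after BL-8040, against 8.53, 8.54 and 8.55 in controls. The treated tumours gave both the highest and the lowest value, and the difference of -0.02 had a 95% interval from -0.17 to 0.14 (limma adjusted p = 0.957). INSR differed more between tumours, with 6.64, 6.54 and 6.29 after BL-8040 against 6.52, 6.595 and 6.71 in controls. BL-8040 replicate 3 lay 0.23 below the next tumour, while the other 2 treated values lay within the range of the controls. The INSR difference was -0.12 with an interval from -0.35 to 0.11 (limma adjusted p = 0.755), and -0.02 without BL-8040 replicate 3.

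The binding proteins varied most. IGFBP5, which binds matrix and heparan sulfate as well as IGFs, had log2 signals of 7.94, 7.94 and 7.39 in BL-8040 replicates 1, 2 and 3, against 8.02, 8.44 and 7.96 in control replicates 1, 2 and 3. All 3 treated values lay below all 3 controls, the only one of the 8 genes with groups apart, where 9.05% of all genes had the treated group below and 14% had groups apart in either direction. The separation was narrow: 4 of the 6 tumours, 2 of each group, lay between 7.94 and 8.02, with BL-8040 replicate 3 lower by 0.55 than the next tumour and control replicate 2 higher by 0.42. The means were 7.76 ± 0.32 in BL-8040 tumours and 8.14 ± 0.26 in control tumours (SD, n = 3 each), or 0.767 times the control level, with a 95% interval from 0.584 to 1.01 times. The difference of -0.38 ± 0.17 (SE) did not pass (limma unadjusted p = 0.0544, adjusted p = 0.646). An exact permutation test (two-sided) gave p = 0.1, its lowest possible value with 3 arrays per group. The IGFBP5 difference was -0.20 without BL-8040 replicate 3 and -0.23 without control replicate 2.

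IGFBP2, a binding protein abundant in fetal and neural tissue, had 10.28, 10.41 and 9.90 after BL-8040, against 10.45, 10.55 and 10.29 in controls. The groups overlapped through BL-8040 replicate 2, which lay above control replicate 3, and BL-8040 replicate 3 was lowest, 0.39 below the next tumour. The difference was -0.23 with a 95% interval from -0.53 to 0.07 (limma adjusted p = 0.676), and -0.08 without BL-8040 replicate 3.

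IGFBP4, an inhibitory binding protein that the protease PAPPA cleaves, had 9.49, 9.44 and 9.12 after BL-8040, against 9.49, 9.67 and 9.44 in controls. Of the 6 tumours, 4 lay between 9.44 and 9.49, with BL-8040 replicate 3 again lowest and control replicate 2 highest. The difference was -0.18 with a 95% interval from -0.43 to 0.07 (limma adjusted p = 0.689). It was -0.06 without BL-8040 replicate 3 and -0.11 without control replicate 2.

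IGFBP3, the main IGF carrier of blood plasma, went another way. Its log2 signal was 6.48, 6.23 and 6.80 after BL-8040, against 6.33, 6.85 and 6.48 in controls, so that BL-8040 replicate 3 and control replicate 2 were now the highest 2 tumours, 1 in each group. The groups overlapped throughout, with a difference of -0.05 and a 95% interval from -0.42 to 0.33 (limma adjusted p = 0.942). The direction of IGFBP3 was not settled: the difference was 0.09 without BL-8040 replicate 2 and 0.10 without control replicate 2.

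**Figure D2:**
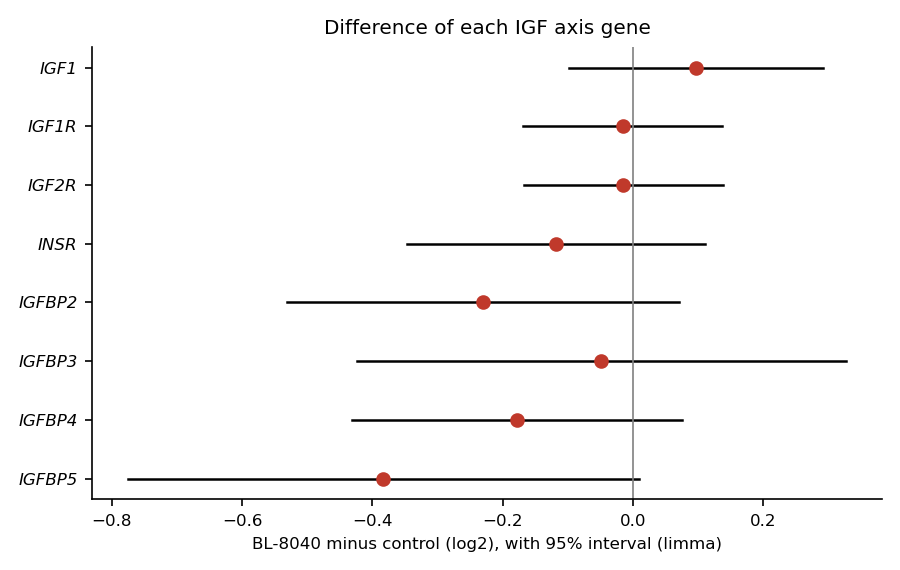
Difference of each IGF axis gene between BL-8040 and control on the log2 scale (points), with the 95% interval from limma (lines; n = 3 arrays per group). All 8 intervals include 0; the intervals of IGF1R and IGF2R run from -0.17 to 0.14, and that of IGFBP5 from -0.78 to 0.01.

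IGF1R and IGF2R lay at the low end of the spread between tumours of a group, and the 4 binding proteins towards the high end, with INSR between them. Pooled over both groups, the SD was 0.03 log2 units for IGF1R and 0.03 for IGF2R, at percentiles 2.11 and 2.44 of all genes, against a median SD of 0.11 over all genes. It was 0.29 for IGFBP5, 0.28 for IGFBP3, 0.21 for IGFBP2 and 0.17 for IGFBP4, at percentiles 97.8, 97.2, 92.0 and 81.8, and 0.14 for INSR, at percentile 72.4. Brighter genes vary less on this array, so each gene was also set beside the genes of the same whole log2 step of signal. Among 823 genes with a mean between 9 and 10, 6.8% had a smaller SD than IGF1R and 94.8% a smaller one than IGFBP4. Among 250 genes between 10 and 11, 97.2% had a smaller SD than IGFBP2, and among 3041 genes between 7 and 8, 98.6% had a smaller SD than IGFBP5. Among 3210 genes between 6 and 7, 97.3% had a smaller SD than IGFBP3 and 74.9% a smaller one than INSR. These shares describe the spread in 6 tumours and were not tested.

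**Figure D3:**
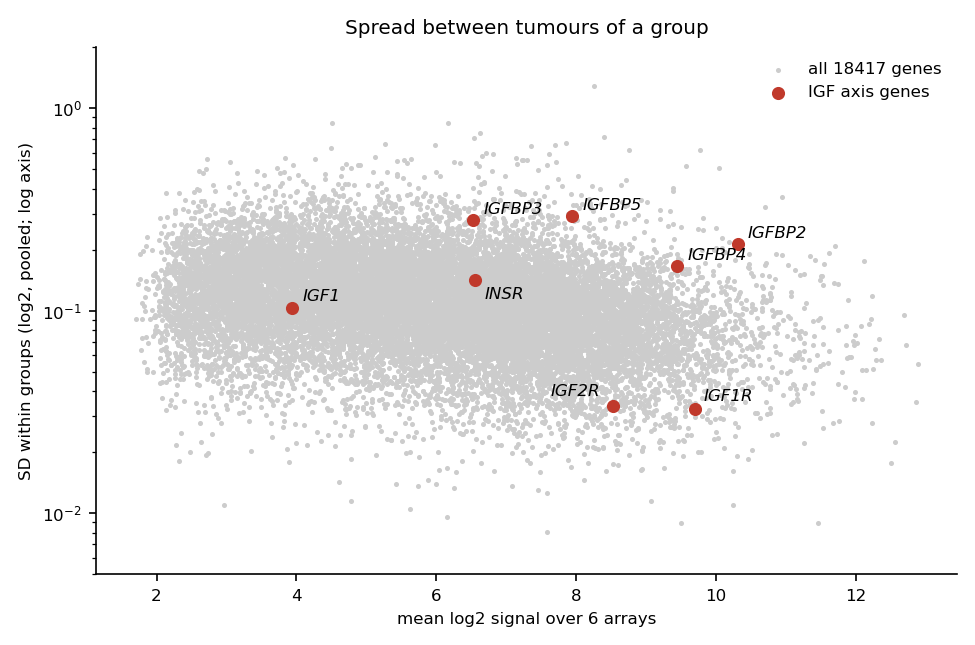
SD within groups (pooled over BL-8040 and control, log2 units on a log axis) against the mean log2 signal over 6 arrays, for all 18417 genes (grey) and the 8 IGF axis genes (red). IGF1R and IGF2R lie near the lower edge of the cloud at their signal, and IGFBP2, IGFBP3, IGFBP4 and IGFBP5 near its upper edge.

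The same tumours set the extremes. BL-8040 replicate 3 gave the lowest value of the 6 arrays in 5 of the 8 genes (IGF2R, INSR, IGFBP2, IGFBP4 and IGFBP5) and the highest in 1 (IGF1), where it was the lowest in 30.5% and the highest in 16.3% of all genes. Control replicate 2 gave the highest value in 4 of the 8 (IGFBP2, IGFBP3, IGFBP4 and IGFBP5), against 22.4% of all genes. With 8 genes these are small counts, and they were not tested.

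Genes induced by low oxygen differed between the same tumours. Of 27 measured hypoxia genes, 27 had a lower mean after BL-8040, where 58.5% of all genes were lower. The smallest of these differences was -0.001, for PFKFB3. The list was chosen with earlier results of these data known, so the count is not an independent finding. Their median difference was -0.28, against -0.02 over all genes, and 4 of 27 were lower at an unadjusted p under 0.05 (limma), where 5.08% of all genes were; 0 were called. That count was 0 without BL-8040 replicate 3, 0 without control replicate 2 and 19 without BL-8040 replicate 2. Of all 18417 genes, 716, 578 and 1015 were lower at that p with the same arrays left out, in the same order. The median of the list, each gene relative to its mean over 6 arrays, was -0.09, 0.12 and -0.39 in BL-8040 replicates 1, 2 and 3, against 0.01, 0.30 and 0.11 in control replicates 1, 2 and 3. IGFBP5 on the same scale was 0.00, -0.01 and -0.56 after BL-8040, against 0.07, 0.49 and 0.01 in controls. The lowest and the highest tumour were thus the same for the hypoxia list, IGFBP2, IGFBP4 and IGFBP5, while IGFBP3 shared only the highest. Hypoxia genes were not alone in this. The median of the 16 tumour cell markers was -0.03, 0.06 and -0.21 in the BL-8040 tumours, against 0.13, 0.18 and -0.01 in the controls. It had the same lowest and highest tumour. NDRG1, a gene of the hypoxia response, had the widest difference of the 4 hypoxia genes with the smallest p (-1.06, and -0.54 without BL-8040 replicate 3; limma adjusted p = 0.644). Without BL-8040 replicate 3, 24 of 27 hypoxia genes were lower, with a median of -0.10. The part of low oxygen or of tumour cell content in the values of the binding proteins was not tested.

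**Figure D4:**
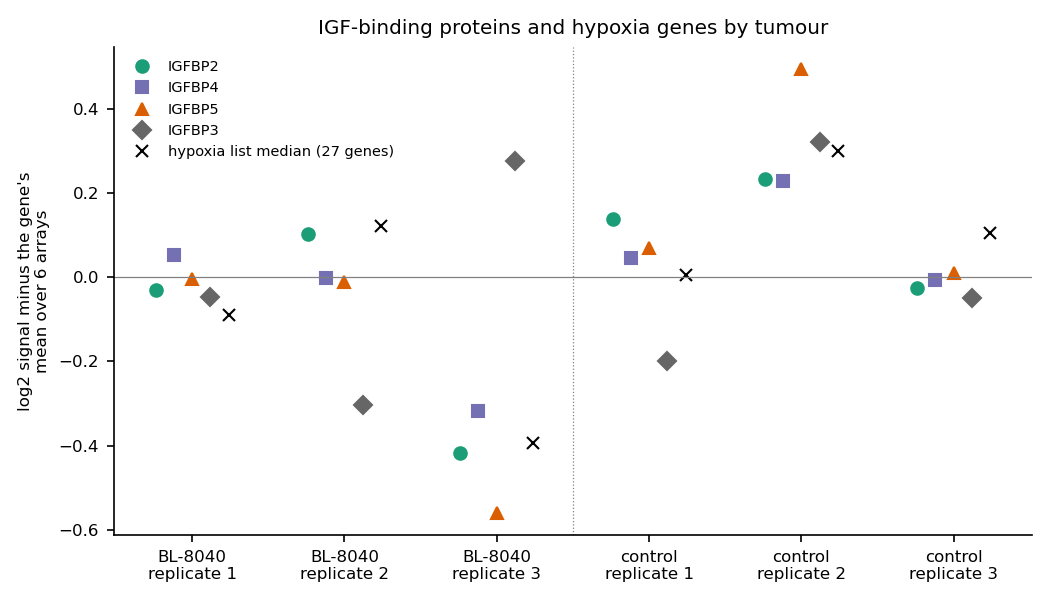
Log2 signal minus the gene's own mean over 6 arrays for IGFBP2, IGFBP4, IGFBP5 and IGFBP3 (filled symbols), and the median of 27 hypoxia genes on the same scale (crosses), in each of the 3 BL-8040 and 3 control tumours. IGFBP2, IGFBP4, IGFBP5 and the hypoxia median are lowest in BL-8040 replicate 3 and highest in control replicate 2, whereas IGFBP3 is high in both.

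Markers of other cells gave these values in the same tumours. The summed linear signal of 10 fibroblast markers was between 4763 and 5134 after BL-8040 and between 4702 and 4934 in controls, with 6 of the 10 higher, but 3 of the 10 without BL-8040 replicate 3. That of 10 endothelial markers was between 1255 and 1503 after BL-8040 and between 1143 and 1206 in controls, although 6 of the 10 were lower. EMCN, the endomucin gene, carried that gap: it stood at 9.58, 9.50 and 9.83 after BL-8040, against 9.36, 9.33 and 9.17 in controls. The other 9 summed to between 531 and 595 after BL-8040 and between 530.1 and 566 in controls. Groups were apart in 4 of the 10, against 14% of all genes: EMCN above, and PECAM1, CDH5 and VWF below, by -0.21, -0.11 and -0.08. These last were dim, at percentiles 18.8, 28.6 and 34.7, against 96.3 for EMCN. The 10 myeloid markers summed to between 536 and 597 after BL-8040 and between 541 and 567 in controls, with 5 of the 10 lower. A linear sum weighs its brightest gene most, here PTPRC, whose treated values all lay above the controls. Those of TYROBP all lay below. For 9 adrenal cortex markers the sums were between 229 and 246 after BL-8040 and between 223 and 233 in controls, and for 6 Schwann cell markers between 151 and 168 against between 157 and 175. Of the tumour cell markers, 15 of 16 were lower, where 58.5% of all genes were, with a median of -0.19. MYCN, the amplified gene, was the other, at 12.26, 12.34 and 12.10 after BL-8040 against 12.22, 12.17 and 12.22 in controls. Groups were apart in 3 of the 16, against 14% of all genes: HAND2, SLC6A2 and PHOX2A, all below. At an unadjusted p under 0.05 (limma) 2 of the 16 were lower, where 5.08% of all genes were, and 0 were called. The sums lay between 11125 and 14433 after BL-8040 and between 13035 and 14954 in controls. MYCN and STMN2 were the brightest of these genes and weigh most in the sums. Without BL-8040 replicate 3, 12 of the 16 were lower, with a median of -0.11. Log2 array values have no true 0, so no marker can be listed at 0, and the part of any of these cells in the IGF axis values was not tested.

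Among all genes whose range over 6 arrays was at least 0.75 of that of IGFBP5 (451 candidates), the 5 whose centred values lay nearest to IGFBP5 were ZNF395, RAB3A, NMB, GAB2 and CREG1. Their mean absolute distance from IGFBP5 was between 0.06 and 0.07 log2 units over the 6 arrays. ZNF395, a zinc finger gene, had 7.83, 7.93 and 7.35 after BL-8040, against 7.91, 8.20 and 7.85 in controls, with the same lowest and highest tumour as IGFBP5. RAB3A encodes a GTPase of synaptic vesicles, NMB the neuropeptide neuromedin B and GAB2 an adaptor of tyrosine kinase signalling. With 6 arrays and 18417 genes, close profiles are found for many genes, and the likeness was not tested.

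Other genes that set how much IGF reaches its receptor were read from a second list, of which 12 of 13 had a value. The list had 3 genes higher and 9 lower, with a median difference of -0.07 against -0.02 over all genes, and limma called 0 of 12 (also 0 at an unadjusted p under 0.05). IGFBP1, a binding protein that insulin represses, had 6.04, 5.91 and 6.05 after BL-8040, against 6.05, 6.20 and 6.35 in controls. All treated values lay below the controls, by less than 0.01 at the nearest pair, with a difference of -0.20 and a 95% interval from -0.41 to 0.01 (limma adjusted p = 0.646). IGFALS, the subunit that joins IGFBP3 or IGFBP5 and IGF into the long-lived complex of blood, had 5.82, 5.80 and 5.71 after BL-8040, against 5.93, 5.85 and 6.21 in controls. These groups did not overlap either, as in 3 of the 12 genes in all, against 14% of all genes. The IGFALS difference was -0.22 with an interval from -0.45 to 0.01 (limma adjusted p = 0.646).

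IGFBP7, a related protein of low IGF affinity found in vessel walls, had the widest difference of that list. It stood at 7.19, 7.12 and 8.74 after BL-8040, against 7.04, 7.11 and 6.92 in controls. All treated values lay above the controls, with 7.12 and 7.11 the nearest pair. BL-8040 replicate 3 alone lay far above, opposite to its place for IGFBP5, and the other 5 tumours lay between 6.92 and 7.19. The difference was 0.66 ± 0.36 (SE, limma adjusted p = 0.663), and 0.13 without BL-8040 replicate 3. STC2, a stanniocalcin that inhibits the protease PAPPA, differed by -0.16, with an interval from -0.35 to 0.03, and by -0.10 without BL-8040 replicate 3.

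Downstream of the receptors, 37 of 44 listed adaptors, kinases and phosphatases had a value. The genes split into 17 higher and 20 lower, with a median difference of -0.02, equal to that of all genes at 2 decimals, and limma called 0 of 37 (also 0 at an unadjusted p under 0.05). PIK3R3, a regulatory subunit of PI3K, had 8.37, 8.52 and 8.53 after BL-8040, against 8.31, 8.39 and 8.21 in controls, and overlapped through BL-8040 replicate 1. PDPK1, the kinase that activates AKT, had 9.16, 9.16 and 8.87 after BL-8040, against 9.20, 9.22 and 9.25 in controls, with groups apart and a difference of -0.16, or -0.07 without BL-8040 replicate 3 (limma adjusted p = 0.666 with all arrays). The adaptors SH2B2 and SH2B1 differed by -0.20 and -0.14, with 95% intervals from -0.41 to 0.01 and from -0.32 to 0.05. Groups were apart in 4 of the 37 genes, PDPK1 among them, against 14% of all genes. Without BL-8040 replicate 3, 21 genes of the list were higher and 16 lower. In that fit 2 of the 37 had an unadjusted p under 0.05 (limma), where 6.24% of all genes did.

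Genes that FOXO factors or feedback induce when PI3K and AKT activity is low, INSR among them, formed a list with 21 of 22 members measured. The list had 7 higher and 14 lower genes, a median difference of -0.04, and 2 genes lower at an unadjusted p under 0.05 (limma), or 9.52% of the list, against 5.08% of all genes. FBXO32, a ubiquitin ligase gene, had 4.29, 4.23 and 4.15 after BL-8040, against 4.67, 4.41 and 4.47 in controls, and FOXO4, one of the factors themselves, 5.86, 5.73 and 5.65 against 5.90, 6.05 and 5.97. Both had groups apart, with differences of -0.29 and -0.22 and limma adjusted p of 0.644 each, so neither passed. They were the only 2 of the 21 with groups apart, where 14% of all genes had them and 9.05% had the treated group below. FBXO32 was dim, at percentile 24.2 of all genes. SESN1, a sestrin that restrains mTOR, differed by 0.19 the other way, with overlapping groups. Without BL-8040 replicate 3 the list split into 10 higher and 11 lower genes, and without control replicate 2 likewise.

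**Figure D5:**
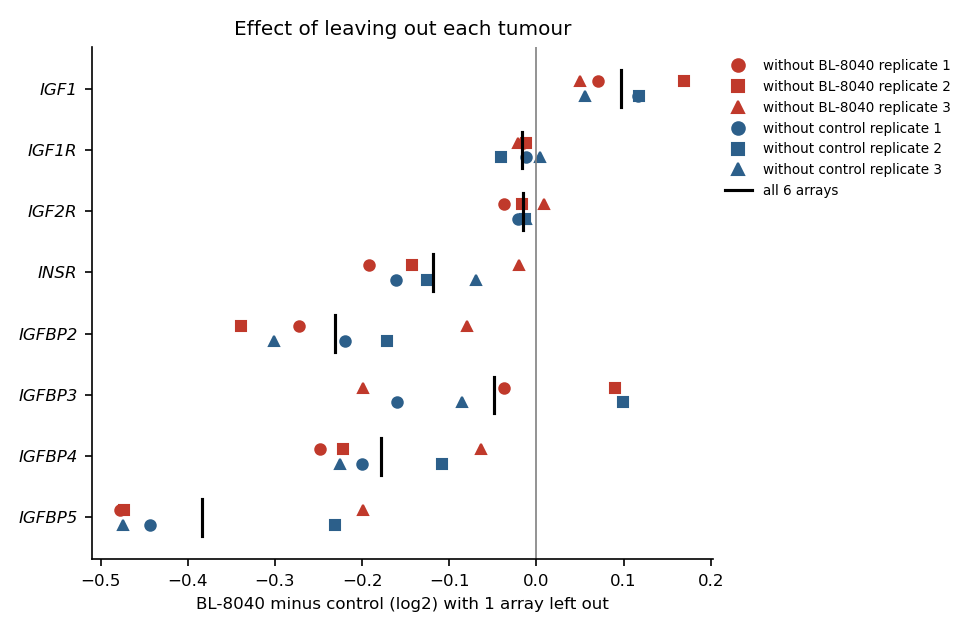
Difference of each IGF axis gene between BL-8040 and control (log2) with 1 array left out; red symbols leave out a BL-8040 array, blue symbols a control array, marker shape gives its replicate number and the black bar is the value with all 6 arrays. INSR, IGFBP2, IGFBP4 and IGFBP5 move closest to 0 without BL-8040 replicate 3, and IGFBP3, IGF1R and IGF2R cross 0 for at least 1 array left out.

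The small number of arrays sets the precision. The median half-width of the 95% interval was 0.24 log2 units over the 8 genes, against 0.20 over all genes, and the intervals of all 8 genes held 0.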

How the data were processed

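RNA of 6 tumours, 3 per group, was extracted with Trizol, and 200 ng was labelled for the Affymetrix Human Gene 1.0 ST array, per the labels' protocols and the series' design text. The authors deposited 1 table of log2 values; the scale was read from the values (1.08 to 13.2). The submitters' processing notes name Partek 6.6; the background, normalization and probe summary methods are not stated in the sources used here. The platform annotation gives 1 symbol to 19460 of 33297 probe sets, several to 1754 and none to 12083. For the 769 genes with more than 1 probe set, the brightest over 6 arrays was kept. No further normalization or filter on dim genes was applied.

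Groups, taken from the sample titles, were compared with lmFit and eBayes of limma 3.58.1 (R 4.3.3), two-sided, without a block, with Benjamini-Hochberg adjustment over 18417 genes; a call is an adjusted p under 0.05. An exact permutation test over 3 against 3 arrays cannot go below 0.1. No 2 arrays were identical. All 8 members with a value are named. In the other IGF, receptor signalling and FOXO lists, the genes named with values are among the 4 with the smallest p. In the hypoxia and cell marker lists not all of those 4 are named. PFKFB3, VWF, MYCN and STMN2 lie outside the 4 smallest p of their lists and are named for the trait given beside them. The members and lists were chosen with earlier results of these data known. No sequence or position is printed.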

Additional observations from a re-analysis of the deposited data

How the results depend on the processing

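In none of the 111 alternative values computed for the 8 genes did limma's adjusted p fall under 0.05, and 0 genes of the whole table were called under any alternative, adjusted p under 0.1 included. Directions turned in 5 of the 111, in 3 genes: IGF1R to 0.0038 without control replicate 3 (lowest -0.040 with 1 array left out), IGF2R to 0.0019 with array weights and 0.0088 without BL-8040 replicate 3 (lowest -0.038), and IGFBP3 to 0.09 without BL-8040 replicate 2 and 0.10 without control replicate 2 (lowest -0.20); apart from the array left out, the cause was not tested. At an unadjusted p under 0.05 (limma), all arrays gave 0 of the 8 genes, where 7.72% of all genes had that p. The count was 1 of 7 when genes dimmer than the median gene were left out (7.75% of the genes tested). It was 1 with quantile normalization (8.39% of all genes) and 2 with the replicate number as a block (8.08%). With 1 array left out it was between 0 and 2, where between 4.91% and 9.98% of all genes had that p. These were IGFBP5 each time, joined by IGFBP2 where there were 2. The whole table gave 1422 genes at that p, against 714 and 727 without genes dimmer than the median gene or than a log2 value of 6 (fewer genes tested), and between 905 (without control replicate 2) and 1838 with 1 array left out. Same-numbered arrays deviated from their group means with r of -0.04, 0.02 and 0.08. BL-8040 replicates 1 and 2 were closest to another number, and BL-8040 replicate 3 to its own. With 3 arrays per group these values cannot settle whether the replicate numbers pair the arrays. The SE of the IGFBP5 difference was 0.11 with the number as a block, against 0.17 without it. Leaving out BL-8040 replicate 3 (chosen for the other lists after seeing the data) turned the fibroblast list to 7 of 10 lower, and leaving out control replicate 2 the myeloid list to 3 of 10 lower. Signal over background could not be judged without detection calls, which limits IGF1 most.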
